A study of Mus musculus with 12 samples.

Results

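The genes described here encode the translation initiation factors of the mouse. They were taken as all genes with a symbol of the form Eif1 to Eif6 that had a probe set of their own on the array, with the sex-linked pair Eif2s3x and Eif2s3y left out. This gave 45 genes, read by 128 probe sets, among 18193 genes of the series with such a probe set. Of the 45, 44 passed the filter on low signal that left 13158 genes for testing. The remaining gene, Eif4a3, was read by 1 dim probe set with a highest signal of 17.4 and was not tested. Eif3j1, Eif3j2 and Eif4ebp3 shared every probe set with another symbol and were not counted as members. Eif1, Eif2s1, Eif3g and Eif4g1 were not analysed here.

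CD8 T cells were purified with an enrichment kit from the spleens of male mice. All mice carried a Cre recombinase under control of Cd4 sequences, which is active in the precursors of both CD4 and CD8 T cells. The controls, called WT, were Cd4-Cre/Scap+/+, and the deficient mice, called KO, were Cd4-Cre/Scapfl/fl. Cells were profiled at quiescence (T0) or after 6 h of activation (T6), with 3 biological replicates in each of the 4 groups. Activation was by antibody to CD3 bound to the plate and soluble antibody to CD28. No group was cultured for 6 h without these antibodies, so activation and time in culture cannot be told apart. Changes on activation are T6 minus T0 throughout. Scap is the escort protein that carries the SREBP transcription factors of sterol and fatty acid synthesis from the endoplasmic reticulum to the Golgi, and the design asks how its loss affects quiescent and activated T cells.

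Translation initiation begins when eIF2, loaded with GTP and the initiator tRNA as the ternary complex, joins the small ribosomal subunit together with eIF1, eIF1A, eIF3 and eIF5. The eIF4F complex (the cap-binding protein eIF4E, the helicase eIF4A and the scaffold eIF4G) brings the mRNA, the start codon is found by scanning, and eIF5B then joins the large subunit. Control acts mainly at eIF2, which stress kinases phosphorylate and eIF2B recharges, and at eIF4E, which the 4E-BP proteins hold back until mTOR phosphorylates them. Quiescent T cells make little protein and raise their rate of synthesis steeply upon activation. The arrays measured mRNA only, so neither phosphorylation nor protein output was seen.

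Promoter sequence is shown for the members whose start sites lie near a CACGTG, the palindromic E-box bound by MYC, MAX and related factors, because Eif4e is a textbook example of an E-box gene and belongs to the group that rose on activation. Windows from 250 bases before to 50 bases after each RefSeq start site (assembly GRCm38.p6) were found for 36 of the 45 genes. CACGTG, which reads the same on both strands, lay in the windows of 9 of these 36 (25%), and in those of 2187 of 27025 genes with such windows (8.09%). The 9 were Eif1b, Eif3a, Eif3f, Eif3k, Eif4a1, Eif4e, Eif4h, Eif5a and Eif5a2. It was present in 6 of 17 members that rose on activation in at least 1 genotype (35.3%) and in 3 of the 18 tested members that did not (16.7%). Some genes have several listed start sites and so a larger searched length (Eif5a has 6), and no test was made. The stretches below run 5′ to 3′ on the gene's strand, with CACGTG in capitals. Both Eif4e matches are given, with those of Eif4a1 and Eif4h, both Eif5a2 matches, and, from a gene that did not rise, the Eif3f match.
Eif4e, chr3:138527020-138527065 (+), motif 228 bases before the start site: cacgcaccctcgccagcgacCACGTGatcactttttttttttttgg
Eif4e, chr3:138527184-138527229 (+), motif 64 bases before: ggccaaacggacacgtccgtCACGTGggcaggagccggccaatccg
Eif4a1, chr11:69672587-69672632 (-), motif 189 bases before: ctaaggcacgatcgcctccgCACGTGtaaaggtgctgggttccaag
Eif4h, chr5:134639480-134639525 (-), motif 96 bases before: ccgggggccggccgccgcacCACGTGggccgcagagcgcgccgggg
Eif5a2, chr3:28781115-28781160 (+), motif 142 bases before: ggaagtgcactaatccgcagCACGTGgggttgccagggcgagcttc
Eif5a2, chr3:28781140-28781185 (+), motif 117 bases before: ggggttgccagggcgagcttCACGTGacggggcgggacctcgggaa
Eif3f, chr7:108934327-108934372 (+), motif 68 bases before: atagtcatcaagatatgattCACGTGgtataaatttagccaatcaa
The matches are descriptions of these windows, and binding of any factor was not measured in this series.

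All values are the linear signals that the authors' software gave each probe set, scaled so that the mean of each array without its extremes was 500.003. Array medians lay between 61.3 and 76.2. Differences are on the scale of log2(signal + 16), and each gene was read by its probe set of highest mean signal. Scap itself, read by a probe set whose position relative to the deleted exons is not known here, had signals of 2940, 2070 and 2380 in WT T0, 3000, 2990 and 3080 in WT T6, 2460, 1810 and 1930 in KO T0, and 2190, 2120 and 2230 in KO T6. The KO minus WT difference was -0.25 at T0 (limma, Benjamini-Hochberg adjusted p = 0.59) and -0.47 at T6 (adjusted p = 0.27), neither called. Markers of other spleen cells differed between the groups. The summed signal of the 9 myeloid markers tested (of 11 listed) ran from 14500 to 19400 in WT T0, 1060 to 2450 in WT T6, 20900 to 26800 in KO T0 and 2550 to 4100 in KO T6. The 6 CD8 T cell markers tested (of 8) summed to 78600 to 95400, 58500 to 67500, 63800 to 73300 and 41200 to 52400 in the same order, and the 7 B cell markers (of 8) to 28200 to 43100, 21200 to 32700, 37100 to 48500 and 31300 to 35300. Most of the B cell sum was Ighm, with means of 26300, 23400, 29700 and 26100. Dimmer B cell markers differed more between genotypes. Means were 287, 223, 1550 and 1010 for Ms4a1 and 81.9, 77.5, 294 and 227 for Cd79a, neither called between genotypes. The erythroid pair Alas2 and Slc4a1, the 2 tested of 5 listed, summed to 176 to 1060, 540 to 879, 1330 to 14400 and 1240 to 18400. The sum was highest on both KO arrays numbered 2. Another listed erythroid marker, Hba-a1, was near background on every array, with a highest signal of 26.4, and did not pass the filter. Cd4 was near background on every array, with a highest signal of 21.5, and 0 of the 3 NK cell markers listed passed the filter. The 2 CD4 T cell markers tested (of 3), Zbtb7b and Cd40lg, summed to 75.1 to 105, 61.2 to 147, 137 to 204 and 37.9 to 186. The KO minus WT difference at T0 was 1.19 for Zbtb7b, without overlap, and -0.22 for Cd40lg (limma adjusted p = 0.49 and 0.9). In bulk RNA, fewer cells of a type and less RNA per cell cannot be told apart.

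Many of the initiation factor mRNAs were higher at T6 than at T0 in both genotypes. In WT cells 18 of the 44 rose, 1 fell and 25 were not called at an adjusted p under 0.05 (limma, Benjamini-Hochberg over the 13158 genes), whereas 11.3% of all tested genes were called higher and 13.8% lower. In KO cells 18 rose, none fell and 26 were not called, against a background of 10.4% higher and 10.4% lower. Without adjustment, 22 members had p under 0.05 in WT and 22 in KO, which is 50% in each, beside 36.5% and 32.7% of all tested genes; 26 had it in at least 1 genotype. The median change of the members was 0.19 in WT and 0.21 in KO, beside -0.06 and 0.00 over all tested genes. Changes ran from -0.64 to 1.0 in WT and from -0.36 to 0.90 in KO. In all, 16 genes rose in both genotypes, Eif3a and Eif5a were called higher in WT only, and Eif2a and Eif4e2 in KO only. The difference between genotypes itself was tested as an interaction, and none was called. The 9 myeloid markers moved the other way over the same interval, 8 of them called lower in each genotype, and their part in the activation changes was not tested. Arrays of a group repeated these genes closely: the SD within groups had a median of 0.10 over the 44 members and 0.22 over all tested genes. The members were also bright, with a median log2 level of 11.72 beside 8.98 over all tested genes. Of the 44, 41 lay above that median of all genes. The part of signal level in the spread and in the share called was not tested. With the replicate number as a block the KO count was 14, as it was without both KO arrays numbered 2, and with only the KO arrays in the fit it was 10.

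**Figure D1:**
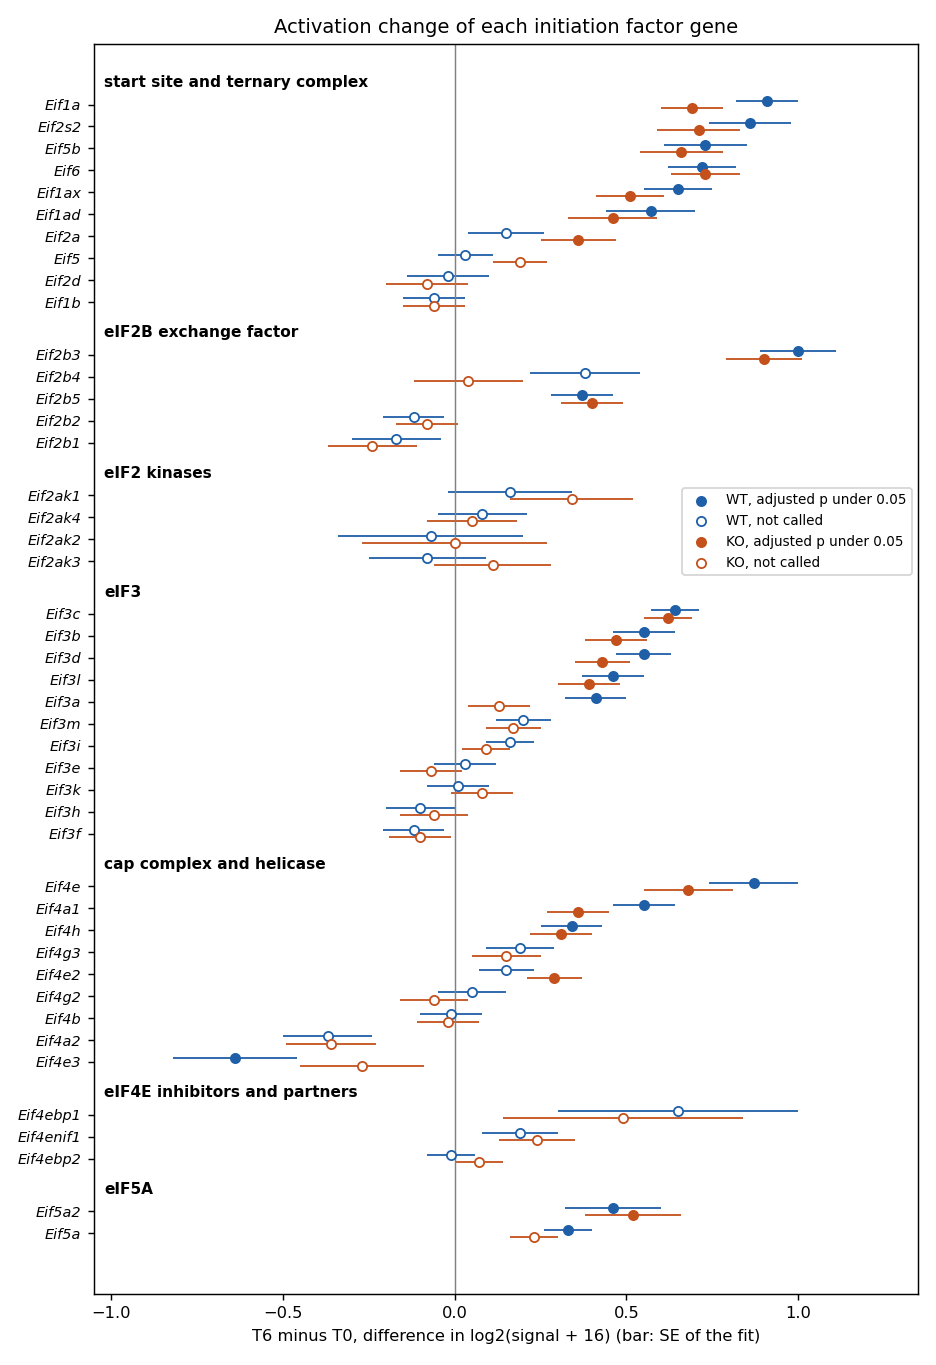
Change on activation (T6 minus T0, difference in log2(signal + 16)) of the 44 tested initiation factor genes, grouped by role and ordered by the change in WT. Points are the fitted differences in WT (blue) and KO (orange), filled where the adjusted p was under 0.05, and bars are the standard error of the fit; the largest rise in both genotypes is that of Eif2b3, followed by Eif1a in WT and by Eif6 in KO, and Eif4e3 is the sole called fall.

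Factors that act on the ternary complex, the start site and subunit joining (among them Eif5b and Eif6) were grouped together. Of 10 tested, 6 rose in WT and 7 in KO, none fell, and the group's median change was 0.61 in WT and 0.49 in KO. Eif1a, which encodes a form of eIF1A, the factor that stabilises the scanning complex, had signals of 1280, 1390 and 1440 in WT T0 and 2650, 2630 and 2460 in WT T6. In KO cells it had 1240, 1270 and 1220 at T0 and 1950, 1920 and 2190 at T6. All activated arrays lay above all quiescent ones, and for this probe set all 3 activated KO arrays lay below all 3 activated WT arrays. Its second probe set had 2240, 2140 and 2220 in WT T6 and 2300, 1930 and 2090 in KO T6, which overlap. The rise was 0.91 (SE 0.09, 1.88-fold, adjusted p = 7.2e-05) in WT and 0.69 (SE 0.09, 1.61-fold, adjusted p = 0.00047) in KO. Its close relative Eif1ax also rose, by 0.65 in WT and 0.51 in KO (adjusted p = 0.0013 and 0.0058). The probe set used for Eif1a carries the suffix _s_at, which the array maker gives to probe sets that match several transcripts, so the forms may not be separated fully.

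Eif2s2 encodes the beta subunit of eIF2. Its signals were 9340, 8940 and 9780 in WT T0, 18400, 15500 and 17300 in WT T6, 9000, 10700 and 8490 in KO T0, and 15400, 17300 and 13400 in KO T6, without overlap between times in either genotype. It rose by 0.86 in WT (SE 0.12, 1.82-fold, adjusted p = 0.00086) and by 0.71 in KO (SE 0.12, 1.64-fold, adjusted p = 0.003). Of its 6 probe sets, 5 rose in WT by 0.84 to 1.01, and a dimmer one gave -0.48 (adjusted p = 0.067 in the fit over probe sets).

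Eif5b, the GTPase that joins the ribosomal subunits, had signals of 1300, 1620 and 1470 in WT T0, 2520, 2260 and 2510 in WT T6, 1450, 1670 and 1450 in KO T0, and 2550, 2140 and 2580 in KO T6. Again no quiescent array reached an activated one. The rise was 0.73 in WT (SE 0.12, 1.66-fold, adjusted p = 0.0016) and 0.66 in KO (SE 0.12, 1.58-fold, adjusted p = 0.0033). With the mean over all of its probe sets the KO call was lost (adjusted p = 0.074).

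Eif6 encodes the factor that keeps free large subunits from joining small ones. It measured 2760, 2660 and 2750 in WT T0, 4640, 4490 and 4330 in WT T6, 2760, 2480 and 2400 in KO T0, and 4710, 3710 and 4370 in KO T6. The rises were alike in size, 0.72 in WT (SE 0.10, 1.64-fold, adjusted p = 0.00081) and 0.73 in KO (SE 0.10, 1.66-fold, adjusted p = 0.00084), and the difference between them was 0.02.

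Eif1ad, an eIF1A-like protein, rose by 0.57 in WT and 0.46 in KO (adjusted p = 0.011 and 0.033). The KO call was lost when any of 4 single KO arrays was left out: T0 replicate 1 or 3, or T6 replicate 2 or 3 (adjusted p = 0.052 to 0.11). Eif2a, which can deliver initiator tRNA independently of eIF2, was called in KO with a rise of 0.36 (adjusted p = 0.045) and had 0.15 in WT (adjusted p = 0.39). That call held under 6 of 22 other settings, and was lost without any of 10 of the 12 arrays. Eif1b (-0.06 in each genotype) and Eif2d (-0.02 and -0.08) were not called.

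Eif5, the activator of GTP hydrolysis by eIF2, depended on which probe set was read. The brightest gave 0.03 in WT and 0.19 in KO, neither called. Its other probe sets gave 0.36, 0.62 and 0.69 in WT (adjusted p = 0.042, 0.0034 and 0.0032 in the fit over probe sets), and -0.54 for the dimmest (adjusted p = 0.19). In KO the same 4 gave 0.28, 0.36, 0.38 and -0.85.

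**Figure D2:**
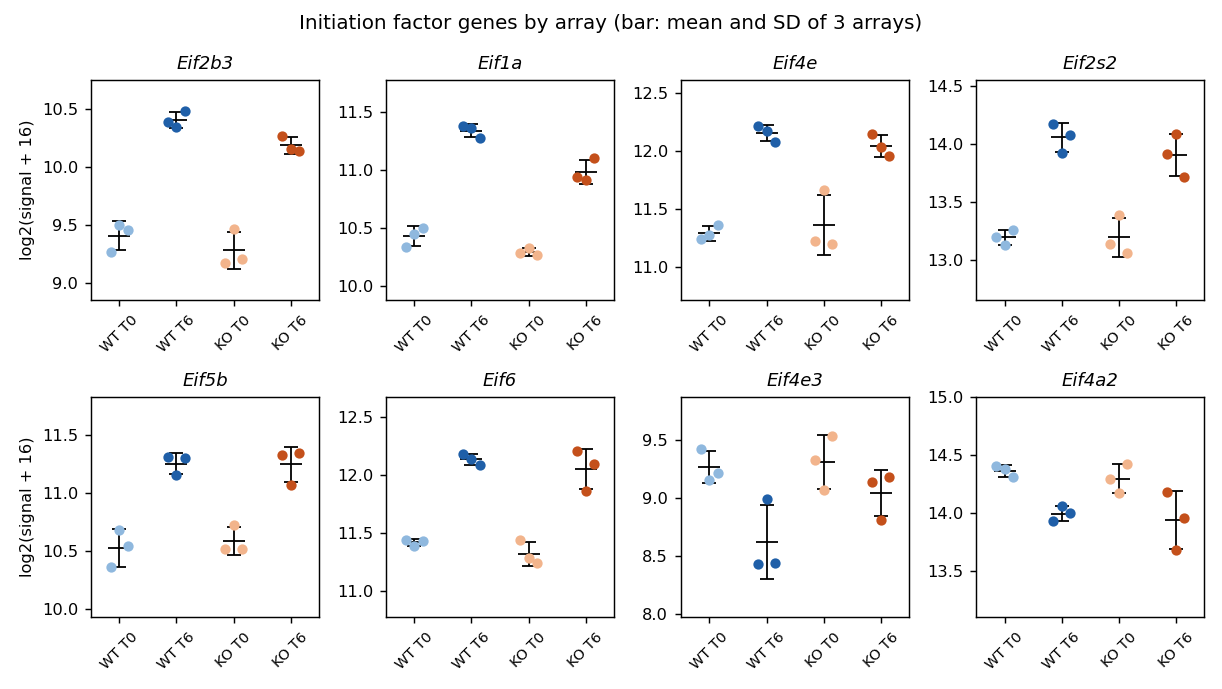
Values on each of the 12 arrays, as log2(signal + 16), for the 6 members with the largest rises, for Eif4e3 and for Eif4a2, by group. Points are arrays, in order of replicate number from left to right, and bars are the mean and SD of 3 arrays; quiescent and activated arrays do not overlap in either genotype for the 6 that rose, and in KO they overlap for Eif4e3 and Eif4a2.

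The eIF2B complex, the exchange factor that returns eIF2 to its GTP form, was uneven. Of its 5 subunit genes 2 rose in each genotype. Eif2b3, the gamma subunit, had signals of 600, 709 and 688 in WT T0, 1320, 1290 and 1420 in WT T6, 561, 693 and 576 in KO T0, and 1220, 1120 and 1110 in KO T6. Every activated array was well above every quiescent array. This was the greatest rise among the members in both genotypes, 1.0 in WT (SE 0.11, 2-fold, adjusted p = 0.00015) and 0.90 in KO (SE 0.11, 1.87-fold, adjusted p = 0.00033). Eif2b5, the catalytic epsilon subunit, rose by 0.37 in WT and 0.40 in KO (limma adjusted p = 0.012 and 0.0085). These calls were lost with the mean over its probe sets (limma adjusted p = 0.48 and 0.15). The second of its 2 probe sets was dim, with a highest signal of 73.4. Eif2b4, the delta subunit, had 0.38 in WT (adjusted p = 0.11) and 0.04 in KO. The alpha and beta subunit genes Eif2b1 and Eif2b2 had -0.17 and -0.12 in WT and -0.24 and -0.08 in KO, not called. Thus the subunit mRNAs of a single complex differed in their measured change from -0.17 to 1.0 in WT.

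None of the 4 kinases of eIF2 was called in either genotype. Eif2ak1 (HRI, which senses haem) had a change of 0.16 in WT and 0.34 in KO. Eif2ak2 (PKR, which senses double-stranded RNA) had -0.07 and 0.00, Eif2ak3 (PERK, which senses stress of the endoplasmic reticulum) -0.08 and 0.11, and Eif2ak4 (GCN2, which senses uncharged tRNA) 0.08 and 0.05. Unadjusted p in the limma fit was under 0.05 for 0 of the 4 in either genotype.

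The subunits of eIF3, the large scaffold on the small ribosomal subunit, split into those that rose and those whose mRNA was near its quiescent level. Of 11 tested, 5 rose in WT and 4 in KO. Eif3c rose by 0.64 in WT and 0.62 in KO (adjusted p = 0.00024 and 0.00034): its signals were 9880 to 10600 in WT T0, 15900 to 16200 in WT T6, 9420 to 9920 in KO T0 and 14400 to 15300 in KO T6. Eif3b, a core subunit, rose by 0.55 and 0.47 (adjusted p = 0.0021 and 0.0056), and Eif3d, the subunit with a cap-binding activity of its own, by 0.55 and 0.43 (adjusted p = 0.00076 and 0.0039). Eif3l rose by 0.46 and 0.39 (adjusted p = 0.0053 and 0.015). Eif3a, the largest subunit, rose by 0.41 in WT (adjusted p = 0.0095) and had 0.13 in KO (adjusted p = 0.37). The calls of Eif3a, Eif3d and Eif3l were lost with the mean over a gene's probe sets (limma adjusted p = 0.53, 0.42 and 0.063 in WT). All probe sets of Eif3a and Eif3l were above the filter. In WT the other Eif3a probe sets gave 0.19, 0.11 and -0.29, and the other Eif3l ones, which were dim, 0.20 and 0.67. For Eif3d the only other probe set was below the filter, with a highest signal of 30.3.

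The other eIF3 subunits were not called in either genotype. Eif3m had 0.20 in WT and 0.17 in KO and Eif3i 0.16 and 0.09. Eif3e had 0.03 and -0.07, Eif3k 0.01 and 0.08, Eif3h -0.10 and -0.06, and Eif3f -0.12 and -0.10. The 95% interval of the Eif3e change ran from -0.17 to 0.24 in WT and from -0.28 to 0.14 in KO, so a rise of the size seen for Eif3c lay outside it. The gene of the loosely bound subunit eIF3j was read only by probe sets shared between Eif3j1 and Eif3j2. Their mean log2 levels in WT were 10.69, 9.76 and 11.94 at T0 and 11.40, 10.18 and 12.50 at T6, and in KO 10.93, 9.83 and 12.05 at T0 and 11.45, 10.30 and 12.44 at T6.

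In the cap-binding complex and its helicase, 3 of 9 tested genes rose in WT and 4 in KO, and 1 fell in WT. Eif4e, the cap-binding protein, had signals of 2390, 2450 and 2610 in WT T0, 4730, 4600 and 4310 in WT T6, 2380, 3210 and 2330 in KO T0, and 4510, 4170 and 3950 in KO T6. KO T0 replicate 2 stood above the other quiescent arrays, and all activated arrays were higher still. Eif4e rose by 0.87 in WT (SE 0.13, 1.82-fold, adjusted p = 0.00088) and 0.68 in KO (SE 0.13, 1.61-fold, adjusted p = 0.0039). Its promoter windows hold the 2 CACGTG matches shown above.

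Eif4e3, a distant relative of Eif4e that binds the cap differently, was the sole member that fell. Its signals were 670, 556 and 582 in WT T0 and 331, 495 and 332 in WT T6, without overlap, and 628, 523 and 727 in KO T0 and 550, 436 and 565 in KO T6, with overlap. The change was -0.64 in WT (SE 0.18, 1.56-fold lower, adjusted p = 0.027) and -0.27 in KO (adjusted p = 0.36). Its second probe set had signals of 377, 220 and 331 in WT T0 and 334, 248 and 281 in WT T6, a change of -0.08, and the mean over both was -0.36 (adjusted p = 0.2). The WT call was also lost under quantile normalization and median centring (adjusted p = 0.052 and 0.066) and without any of 4 single WT arrays, T0 replicate 1 or 3 or T6 replicate 1 or 3 (adjusted p = 0.058 to 0.095).

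The helicase genes Eif4a1 and Eif4a2, whose products are closely similar proteins, had changes of opposite sign. Eif4a1 had signals of 15700, 13400 and 14600 in WT T0, 21900, 20100 and 22000 in WT T6, 14900, 15000 and 14700 in KO T0, and 20300, 18800 and 18500 in KO T6. It rose by 0.55 in WT and 0.36 in KO (adjusted p = 0.0015 and 0.015), and the KO call was lost without KO T6 replicate 1 (adjusted p = 0.058). Eif4a2 had signals of 21700, 21300 and 20300 in WT T0, 15600, 17100 and 16400 in WT T6, 20100, 18500 and 22000 in KO T0, and 18600, 13100 and 15900 in KO T6. Its change was -0.37 in WT and -0.36 in KO, which narrowly missed the threshold (adjusted p = 0.059 and 0.073). WT arrays of Eif4a2 did not overlap between times, and KO arrays did.

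Of the remaining cap-complex genes, Eif4h, a cofactor of the helicase, rose by 0.34 and 0.31 (adjusted p = 0.017 and 0.033). Its call ended with quantile normalization in both genotypes, without WT T0 replicate 2 or WT T6 replicate 3 in WT, and without any of 5 single KO arrays in KO, all except T0 replicate 2. With its probe sets averaged, the Eif4h change was 0.06 in WT and -0.04 in KO (limma adjusted p = 0.83 and 0.88). Eif4e2, the competing cap-binding protein 4EHP, was called in KO with 0.29 (adjusted p = 0.027) and had 0.15 in WT (adjusted p = 0.21). The KO call ended without any of 4 single KO arrays, T0 replicate 1 or 3 or T6 replicate 2 or 3. Eif4b, the other helicase cofactor, had -0.01 and -0.02, the scaffold Eif4g3 0.19 and 0.15, and Eif4g2, the scaffold that lacks the eIF4E site, 0.05 and -0.06, none called.

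The eIF4E inhibitors and partners were not called. Eif4ebp1, which encodes the main mTOR-controlled inhibitor 4E-BP1, had signals of 758, 1380 and 1660 in WT T0, 2110, 1800 and 1790 in WT T6, 1640, 2030 and 938 in KO T0, and 1610, 2930 and 1850 in KO T6. The quiescent arrays spread over more than a doubling in each genotype, so the change of 0.65 in WT (adjusted p = 0.22) and 0.49 in KO (adjusted p = 0.38) was not resolved. Eif4ebp2 had -0.01 and 0.07, and Eif4enif1, the eIF4E transporter, had 0.19 and 0.24.

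Both eIF5A genes rose in WT. Their product carries the amino acid hypusine and helps ribosomes past difficult peptide bonds. Eif5a had signals of 26700, 24800 and 26200 in WT T0, 32800, 32400 and 32600 in WT T6, 26000, 25500 and 27000 in KO T0, and 31700, 29700 and 30800 in KO T6, so that times did not overlap in either genotype. Its change was 0.33 in WT (adjusted p = 0.0095) and 0.23 in KO, just short of a call (adjusted p = 0.053). Its second probe set, which is dimmer, gave 0.99 in WT and 0.64 in KO (adjusted p = 0.00017 and 0.0022 in the fit over probe sets). Eif5a2 rose by 0.46 in WT and 0.52 in KO (adjusted p = 0.04 and 0.027). Its WT call was lost without any of 5 single WT arrays, all except T0 replicate 2, and its KO call without KO T0 replicate 3 or KO T6 replicate 2 or 3.

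Most other bright probe sets of the same genes changed in the same direction. In WT, 15 of the 18 genes that rose had 33 further probe sets above the filter: 27 of these had a positive change, 17 were called higher and 1 lower. The lower one was a dim probe set of Eif4h with -0.87. Where the mean log2 level was at least 9, 19 of 20 were positive and 15 called higher, and below that level 8 of 13 and 2. In KO there were 34 further probe sets, with 29 positive and 11 called higher. Bright ones were positive in 17 of 17 and dim ones in 12 of 17.

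**Figure D3:**
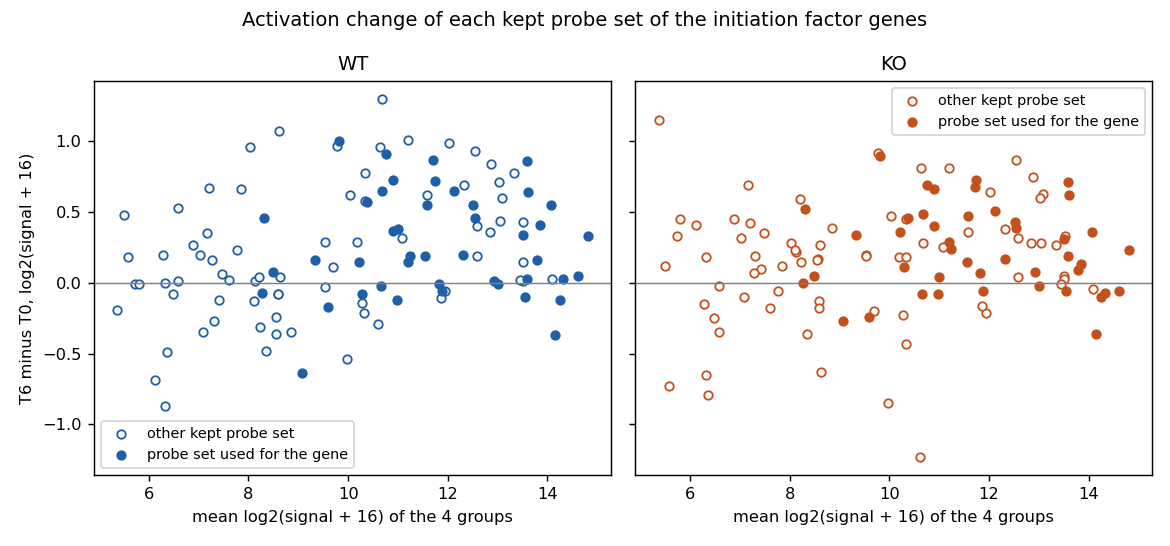
Change on activation of every probe set of the members that passed the filter, against its mean log2(signal + 16) over the 4 groups, in WT (left) and KO (right). Filled points are the probe sets used for a gene and open points its others; above a level of 9 nearly all further probe sets of the genes that rose are positive, while below it both signs occur.

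Sign differed between probe sets of a gene for 20 of the 32 members with several probe sets above the filter, 16 in WT and 13 in KO. In the start site group, WT changes ran from -0.35 to 0.15 for Eif2a, from -0.27 to 0.66 for Eif2d, from -0.48 to 1.01 for Eif2s2 and from -0.54 to 0.69 for Eif5. KO changes of the same genes ran from 0.36 to 0.39, from -0.08 to 0.45, from -0.36 to 0.92 and from -0.85 to 0.38. Among eIF2B subunits Eif2b2 ran from -0.43 to 0.17 in KO and Eif2b5 from -0.01 to 0.37 in WT. Among the kinases, Eif2ak1 ran from -0.31 to 0.16 in WT, Eif2ak2 from -0.07 to 0.27 in WT and Eif2ak4 from -0.79 to 0.05 in KO.

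Among eIF3 subunits, Eif3a ran from -0.29 to 0.41 in WT and from -1.23 to 0.13 in KO, the lowest being a probe set called lower in KO (adjusted p = 0.0088 in the fit over probe sets). Eif3e ran from -0.07 to 0.05 and Eif3l from -0.15 to 0.42 in KO, and Eif3m from -0.69 to 0.20 in WT. For cap-complex genes, Eif4e ran from -0.19 to 0.96 and Eif4e2 from -0.36 to 1.07 in WT, Eif4g2 from -0.11 to 0.05 in WT, Eif4g3 from -0.35 to 0.32 in KO, and Eif4h from -0.87 to 0.44 in WT. The inhibitor genes Eif4ebp1 and Eif4ebp2 ran from -0.35 to 0.65 in WT and from -0.63 to 0.12 in KO. Probe sets of a gene can read different transcript ends, and which transcripts each matches was not examined here.

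Between genotypes no initiation factor gene was called at rest. At T0, 0 of 44 members differed between KO and WT (limma, Benjamini-Hochberg), against 0.038% of all tested genes, and 2 (4.55%) had an unadjusted p under 0.05, beside 9.77% of all tested genes. The median difference was -0.01, with 21 members positive and 23 negative, and the lowest adjusted p was 0.38. The 95% intervals had a median half-width of 0.22, and for 38 of the 44 the whole interval lay within 0.5 on the log2 scale.

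The smallest p at T0 was that of Eif5, with 13800, 12300 and 13000 in WT and 11000, 10400 and 10800 in KO. The groups did not overlap, and the difference was -0.27 (SE 0.08, 95% interval -0.45 to -0.10, adjusted p = 0.38). Eif2a followed, with 1170, 1140 and 1250 in WT and 879, 948 and 1130 in KO, a difference of -0.27 (SE 0.11, adjusted p = 0.48). Eif2ak4 had 384, 390 and 336 in WT and 335, 304 and 273 in KO, also -0.27 (SE 0.13, adjusted p = 0.55). In each of these 3 genes every KO array was below every WT array for the probe set used, and none of the differences passed the adjustment. The genes were picked for their small p, and the share of all tested genes without overlap was not counted. Groups at T0 also did not overlap for Eif1a and Eif3e, with KO lower. With KO higher they did not overlap for Eif2ak1, Eif2ak2, Eif2b4 and Eif4g3. The differences of Eif5, Eif2a and Eif2ak4 were smaller or of the other sign in the genes' other probe sets. Averaged over all probe sets, also those below the filter, they were -0.09 for Eif5, -0.07 for Eif2a and -0.03 for Eif2ak4 (limma adjusted p = 0.8, 0.94 and 0.97). The other Eif5 probe sets gave -0.09 to 0.04, and the second Eif2ak4 probe set gave 0.21.

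After activation, again 0 of 44 members were called between genotypes, against 0.0988% of all tested genes, and 6 (13.6%) had an unadjusted p under 0.05, near the 11.8% of all tested genes. The median difference was -0.06, with 13 members positive and 31 negative, beside 0.04 over all tested genes. It was -0.02 under quantile normalization and -0.13 under median centring, where the median of all genes was 0.03 and -0.02. The lowest adjusted p was 0.19, for Eif1a at -0.35 (SE 0.09, 95% interval -0.55 to -0.16). Its second probe set gave -0.07, and the mean over both -0.21 (adjusted p = 0.48). Eif2ak1 had 512, 678 and 536 in WT T6 and 719, 1080 and 717 in KO T6. It was higher on every KO array, with a difference of 0.52 (SE 0.18, adjusted p = 0.32). Without KO T6 replicate 2, or without both KO arrays numbered 2, the difference was 0.32 (adjusted p = 0.49 and 0.41). At T0 it had 527, 481 and 523 in WT and 632, 754 and 568 in KO, a difference of 0.33, while its other probe sets above the filter gave -0.01, 0.14 and -0.26. At T6 those other probe sets gave 0.20, 0.37 and 0.20, and KO T6 replicate 2 was the highest array in each. HRI is abundant in erythroid cells, and Eif2ak1 was highest in KO on the replicates numbered 2. On these arrays the sum of Alas2 and Slc4a1 was also highest, while Hba-a1 was near background on every array. The part of erythroid RNA in the Eif2ak1 difference was not tested. Eif3e had 22200, 21500 and 23300 in WT and 18300, 19100 and 18200 in KO, without overlap, a difference of -0.27 (SE 0.09, adjusted p = 0.33). Its other probe sets above the filter gave -0.20 and 0.02. The mean over all its probe sets, which takes in a dim one below the filter, was -0.08 (limma adjusted p = 0.82). With KO lower, groups at T6 also did not overlap for Eif1a, Eif2ak4, Eif2b3, Eif3a, Eif3b, Eif3c, Eif3h, Eif3i, Eif3m, Eif4b, Eif5 and Eif5a. With KO higher they also did not overlap for Eif4ebp2 and Eif4enif1. Lack of overlap was thus common among the members at T6, and its share over all tested genes was not counted.

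The eIF3 subunits leaned the same way at T6. All 11 tested had a negative KO minus WT difference, from -0.27 to -0.03 with a median of -0.11, and 9 of 11 were negative at T0, with a median of -0.09. The T6 median was -0.05 under quantile normalization and -0.17 under median centring, with all 11 negative in each, and 10 of 11 were negative when a gene's probe sets were averaged. None was called at either time, and 2 at T6 (Eif3a and Eif3e) and 0 at T0 had an unadjusted p under 0.05. The genes were read on the same arrays and are not independent observations. The lean was not particular to eIF3. At T6, 8 of 10 start site genes, 7 of 9 cap-complex genes and 30 of 39 other translation genes described below were negative. So were 3 of 5 eIF2B genes, 1 of 2 eIF5A genes, 1 of 4 kinase genes and 0 of 3 eIF4E inhibitors and partners. Over all 13158 tested genes 5643 were negative. The 6 CD8 T cell markers were also all negative at both times, with a median of -0.27 at T0 and -0.34 at T6, and all 7 B cell and 9 myeloid markers were positive. Their part in the eIF3 differences was not tested. Kinase genes had a median of 0.21 at T6, from -0.30 for Eif2ak4 to 0.52 for Eif2ak1, none called.

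**Figure D4:**
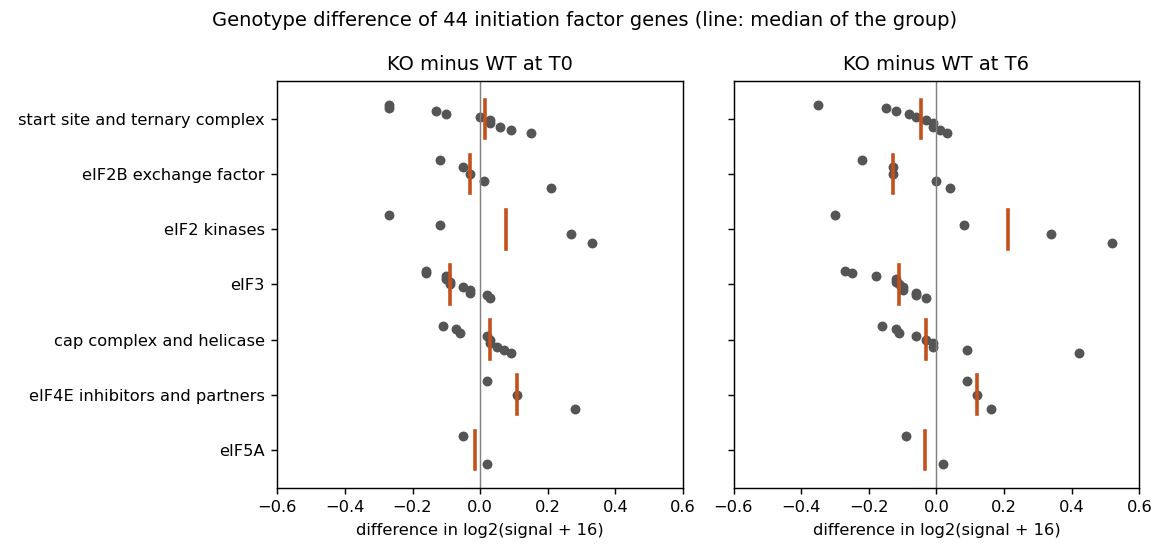
KO minus WT difference, in log2(signal + 16), of the 44 tested members at T0 (left) and T6 (right), by role. Points are genes and the short line is the median of each role group; no gene was called, and at T6 all 11 eIF3 genes lie below 0 while Eif2ak1 lies farthest above it at 0.52.

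The question whether activation changed a gene by a different amount in KO cells was tested directly as the interaction of genotype and time. It was called for 0 of 44 members and for 0% of all tested genes, and 0 members and 604 of all genes had an unadjusted p under 0.05 (limma). The interaction had a median of -0.03 over the members, and its 95% intervals had a median half-width of 0.31, so differences of that order were not resolvable for a typical member with 3 arrays a group. The smallest p was that of Eif3a, with an interaction of -0.28 (SE 0.13, 95% interval -0.56 to 0.01, adjusted p = 1), or -0.42 with its probe sets averaged (adjusted p = 1). Its signals were 14500, 12900 and 12800 in WT T0, 17900, 17100 and 18200 in WT T6, 13800, 14200 and 12900 in KO T0, and 15900, 13900 and 15000 in KO T6, so times overlapped in KO and not in WT. Eif1a had -0.22 (SE 0.12, adjusted p = 1). Eif2b4 had -0.34 (SE 0.22, adjusted p = 1), with signals of 1890, 1580 and 1810 in WT T0, 2090, 2190 and 2630 in WT T6, 2020, 2060 and 2020 in KO T0, and 1900, 2710 and 1780 in KO T6. The KO T6 values of Eif2b4 were split between a single high array, replicate 2, and a pair of low ones, and without that array the interaction was -0.53 (SE 0.16, adjusted p = 0.86).

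Other genes of the translation pathway were described from a list of symbols. Of 44 listed symbols 39 were tested: 10 rose and 5 fell in WT, and 7 rose and 5 fell in KO, with median changes of 0.16 and 0.10. The background was 11.3% higher and 13.8% lower in WT and 10.4% each way in KO, so the count of falls was near it. The termination factor Etf1 rose by 0.88 in WT and 0.71 in KO (adjusted p = 0.00011 and 0.00048). Rheb, the GTPase that activates mTOR, rose by 0.61 and 0.51 (adjusted p = 0.00063 and 0.0022). The RNA-binding proteins Larp1, which acts on 5′ TOP mRNAs under mTOR control, and Larp4, which binds poly(A), rose by 0.58 and 0.58 in WT and by 0.65 and 0.50 in KO. Among genes that fell, Pdcd4, an inhibitor of the eIF4A helicase, had -0.52 and -0.41 (adjusted p = 0.0021 and 0.0085), and Mknk1, a kinase of eIF4E, had -0.52 and -0.62 (adjusted p = 0.019 and 0.0095).

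The largest fall was that of Ppp1r15a, which encodes GADD34, the stress-induced subunit that directs a phosphatase to eIF2. Its signals were 7690, 5730 and 6330 in WT T0, 1380, 1300 and 1060 in WT T6, 4820, 5070 and 4960 in KO T0, and 1720, 4060 and 1520 in KO T6. All activated arrays lay below all quiescent arrays, and KO T6 replicate 2 lay far above the other activated arrays. The change was -2.38 in WT (SE 0.31, adjusted p = 0.00043) and -1.16 in KO (SE 0.31, adjusted p = 0.022), and the interaction of 1.22 was not called (SE 0.43, adjusted p = 1). Of the 5 elongation genes tested none was called in either genotype, and unadjusted p was under 0.05 for 0: in WT Eef1a1 had 0.01, Eef1b2 -0.07, Eef1d 0.00, Eef2 0.07 and Eef2k, the kinase that inhibits Eef2, -0.44. Dhps, the enzyme that starts hypusine formation on eIF5A, rose by 0.34 in WT and 0.49 in KO (adjusted p = 0.036 and 0.0076). Between genotypes, 0 of the 39 were called at either time, with 3 (7.69%) at T0 and 5 (12.8%) at T6 at an unadjusted p under 0.05 (limma), beside 9.77% and 11.8% of all tested genes.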

How the data were processed

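PolyA RNA of 12 samples was labelled with biotin and hybridised to Affymetrix mouse arrays, per the labels' protocols. The deposited values are intensities, 1 linear signal per probe set, made with GCOS per the submitters' processing notes; its settings and version are not given in the sources used here. Of 45101 probe sets, 34945 carried 1 gene symbol in the platform annotation, 932 several, 9160 none and 64 were controls. Signals were analysed as log2(signal + 16) without further normalization. A gene was read by its probe set of highest mean and kept if above percentile 40 of the array on at least 3 of 12 arrays. A single limma 3.58.1 fit (R 4.3.3) over 4 groups gave 5 comparisons, two-sided, with Benjamini-Hochberg adjustment over 13158 genes and calls at an adjusted p under 0.05. Genes with values on every array included the 6 largest called rises and falls per activation contrast and the 3 smallest p between genotypes. Others were given outside this rule, among them Eif4a1, Eif4a2, Eif4ebp1, Eif5a, Scap and Ppp1r15a. Replicates correlated at 0.969 to 0.978. The labels call replicates biological and number them in each group without stating a shared animal. Deviations of same-numbered KO arrays at T0 and T6 correlated at 0.18, 0.46 and 0.38. Those of WT arrays correlated at 0.23, -0.06 and -0.11. The main fit did not use the replicate number, so its tests are unpaired in both genotypes. In the replicate block the number was a block within each genotype for the activation and interaction comparisons. For KO minus WT the block was shared by both genotypes. Precision is limited by having 3 arrays a group. Members and lists were chosen with earlier results of these data known. Alternatives were another added constant (64), quantile normalization, median centring, no filter, percentile 60, the mean of or all of a gene's probe sets, only the groups compared, leaving out arrays, and the replicate block. The mean took in every probe set of a gene, also those below the filter.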

Additional observations from a re-analysis of the deposited data

How the results depend on the processing

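Called in WT activation under all 22 other settings were 12 of 19 members (Eif1a, Eif1ad, Eif1ax, Eif2b3, Eif2s2, Eif3b, Eif3c, Eif4a1, Eif4e, Eif5a, Eif5b and Eif6), and in KO 8 of 18 (Eif1a, Eif1ax, Eif2b3, Eif2s2, Eif3b, Eif3c, Eif4e and Eif6). The KO count of 18 became 11 when probe sets of a gene were averaged and 10 with only the KO arrays in the fit, which has fewer samples. The KO change of Eif4h reversed to -0.04 (limma adjusted p = 0.88) on averaging its probe sets; the cause was not tested. Leaving out 1 array gave 16 to 21 calls in WT and 13 to 18 in KO, and 0 to 0 for KO minus WT at T0, at T6 and for the interaction. With the replicate block, 18 were called in WT and 14 in KO, the KO calls of Eif1ad, Eif4e2, Eif4h and Eif5a2 and the WT call of Eif5a2 being lost. Without both KO arrays numbered 2, chosen after seeing the data for their Alas2 and Slc4a1 signal, the counts were 20 and 14. Median centring moved the median of all genes in WT from -0.06 to 0.05 and the members' from 0.19 to 0.30, and in KO from 0.00 to 0.06 and from 0.21 to 0.27. The split of all called genes in WT, 1492 higher and 1810 lower, became 1907 and 1141, while that of members went from 18 and 1 to 18 and 0. Over all genes, the 5 calls for KO minus WT at T0 ranged from 1 to 10 across settings, the 13 at T6 from 0 to 33 and the 0 for the interaction from 0 to 1. Bright probe sets of a gene also disagreed in places, as for Eif3a and Eif5.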
